A study of Danio rerio with 8 samples.

Results

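The genes of the extracellular matrix (collagens, laminins, fibronectins, fibulins, fibrillins, tenascin C, versicans and link proteins) and of its integrin receptors were examined on arrays of whole zebrafish embryos at 24 hours post fertilisation (hpf). A probe was included when the current symbol of its gene was col with a type and chain number, or began with lama, lamb, lamc, fn1, fbln, fbn, tnc, vcan, hapln, or itga or itgb followed by a digit. This gave 118 probes of 55 genes, out of 39162 probes in all, of which 24716 had a symbol (12792 genes). Collagens accounted for 58 probes, laminins for 16, fibronectins for 6, fibulins for 5, fibrillins for 2, tenascin C for 2, versicans for 3, link proteins for 5 and integrins for 21. More than 1 probe was present for 38 of the 55 genes. By the letters of the rule the integrins also took in itgb1bp1, a cytoplasmic protein that binds an integrin tail, and the only proteoglycan core protein covered was versican, as vcanb. Another 67 genes that fit the rule, among them vcana, tnca, col4a1, col4a2, col6a1, col6a2, col6a3, col12a1a and col18a1a, were not analysed here because no probe of the matrix was paired with them. The nucleotide sequences of the probes were not used here, so cross-hybridisation between closely related chains was not tested.

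The extracellular matrix is the network of secreted proteins around and beneath cells. Fibrillar collagens form its tensile fibres, network collagens and laminins build the sheet-like basement membrane, and fibronectin, tenascin C and versican form a softer provisional matrix in tissues that are still moving and folding. Cells hold on to this network through integrins, surface receptors made of an alpha and a beta subunit. In the zebrafish embryo the notochord sheath, the somite boundaries, the fin folds and the cardiac jelly between the layers of the heart tube are known sites of such matrix.

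All embryos were of the AB strain and were injected at the 1-cell stage with 1.5 ng of a morpholino, an antisense oligonucleotide that blocks a transcript, together with 0.25 ng of a synthetic microRNA mimic. The MO-Ct group (n = 2 arrays) received the control morpholino and control mimic. The MO-Tbx5a group (n = 3) received a morpholino against tbx5a, the gene of a T-box transcription factor needed for heart and pectoral fin formation, with the control mimic. The MO-Tbx5a+miR-19a group (n = 3) received the same morpholino with the mimic of miR-19a. Each array carried RNA of a pool of about 50 whole embryos, so affected and unaffected embryos and all tissues are mixed, and fewer cells of a type and less RNA per cell cannot be told apart. No tbx5a probe was analysed here, so the depletion was not checked on these arrays.

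Several facts limit these groups. In the last group the treatment label says MO-19a, a morpholino, but the titles and the design text say the mimic of miR-19a, and the second reading was used throughout. Its labels also give another labelling kit, RNA amount and scan software version from those of the other groups, so kit and group cannot be told apart in its comparisons. The scanner files of these 3 samples correlated with their own columns of the value table at 0.945 to 0.947 and with the column of MO-Ct replicate 2 at 0.951 to 0.958, whereas columns of 1 group correlated at 0.994 to 0.997, so scanner signals entered no comparison between groups. The labels call the arrays of a group replicates without saying whether the pools came from separate injections, and p-values measure only the spread between these arrays.

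Values are log2 intensities normalised by the authors, which ran from 4.06 to 19.4 with array medians of 7.77 to 7.80. Changes are differences of group means on this scale. A probe was called higher or lower at a fold change above 1.3 with a p and a Benjamini-Hochberg adjusted p under 0.05 in limma, fitted to all 39162 probes on all 8 arrays. The adjusted p-values below (q) are from that fit and two-sided. A level was compared only within a probe, never between probes. For each gene the brightest probe is given first.

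In MO-Tbx5a embryos the matrix genes moved both ways. Of the 118 probes, 35 were called higher and 29 lower than in MO-Ct, 54.2% in all, where 38.4% of all probes were called (18.7% higher, 19.6% lower). A mean under 6 was found for 17.8% of matrix probes and 23.5% of all, and among probes with a mean above 6 the shares called were 60.8% of 97 matrix probes and 46.1% of all. The median change was 0.07 against 0.01 over all probes, and the median size of change was 0.43 against 0.30. With the miR-19a mimic added, 29 matrix probes were higher and 34 lower than in MO-Tbx5a (53.4%, background 42.2%, of which 20.2% higher and 21.9% lower), and at a mean above 6 the shares were 59.8% of matrix probes and 50.5% of all. With the mimic against the controls 12 probes were higher and 2 lower (11.9%), close to the background of 11.2%, of which 5.24% were higher and 5.95% lower, and at a mean above 6 the shares were 13.4% and 12.9%. An unadjusted p under 0.05 was found for 77, 72 and 36 of the 118 probes in the 3 comparisons, where 49%, 55.4% and 27.1% of all probes had one. The MO-Tbx5a arrays enter the first and the second comparison with opposite signs, and the MO-Ct arrays the first and the third with the same sign, so opposite or equal changes across comparisons are favoured by construction and each comparison is given by its own values.

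**Figure D1:**
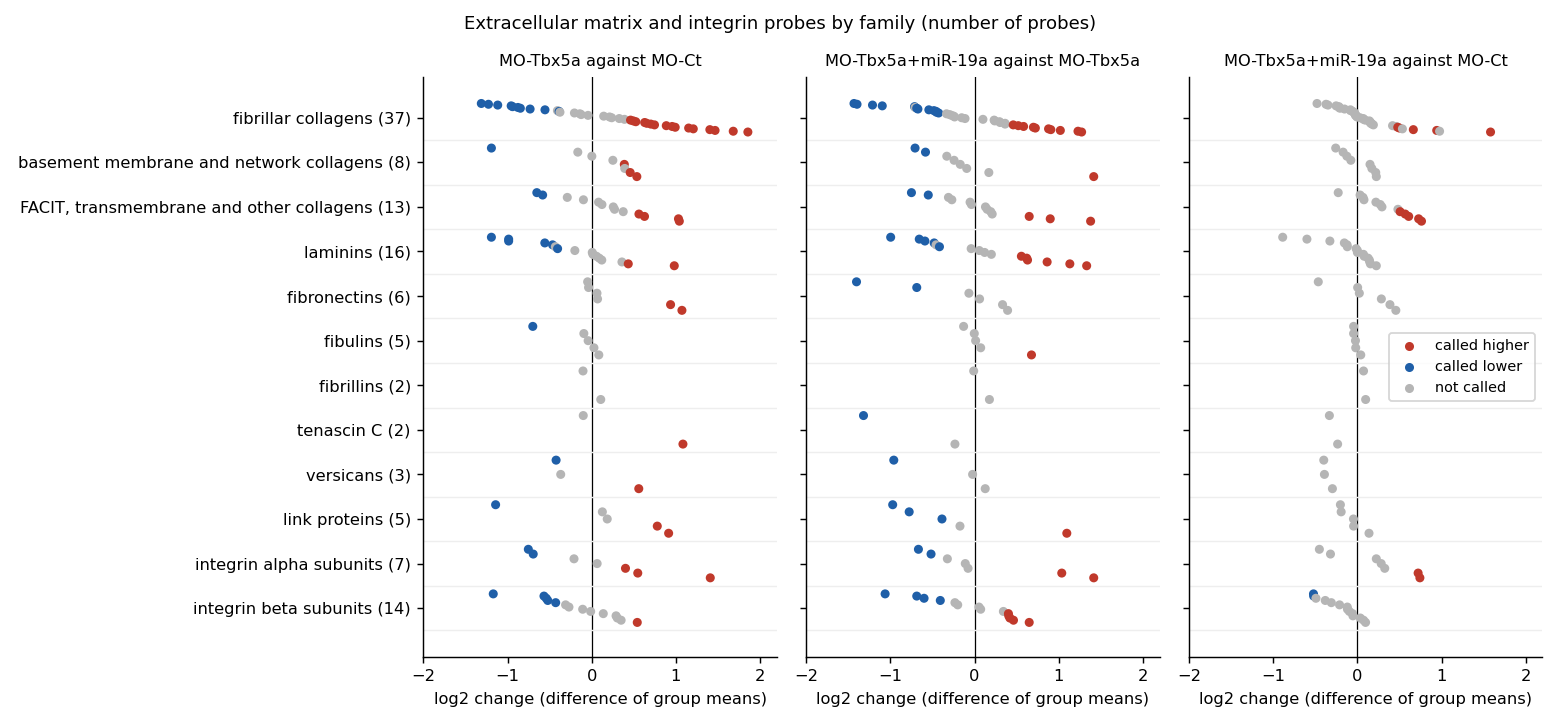
Each point is 1 of the 118 probes, placed by its log2 change (horizontal axis) within its family (rows, number of probes in brackets) in the 3 comparisons (panels), red where called higher, blue where called lower and grey where not called. Points lie on both sides of 0 in most families in the first 2 panels, and in the third panel 14 of 118 are coloured, 10 of them collagen probes.

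Collagens held 58 of the probes. Of these, 23 were higher in MO-Tbx5a by the call used and 13 were lower (62.1%, all probes 38.4%). Of the types found in notochord sheath and cartilage, 5 of 8 probes of type II, 5 of 7 of type XI, 3 of 4 of type XXVII and 2 of 8 of type IX were called higher, and 1 each of types II and IX lower. Of type I, the main fibrillar collagen of skin, bone and tendon, 6 of 11 probes were called lower and 1 higher. This split by type was drawn after the values were seen and is a description. It counts probes, and a gene can have several.

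The largest change of any matrix probe against MO-Ct, in both morphant groups, was that of col11a2. The gene col11a2 encodes the alpha 2 chain of type XI collagen, which nucleates and limits the width of type II fibrils. Its brighter probe (A_15_P151126) read 9.66 and 9.0 on the MO-Ct arrays, 11.44, 10.83 and 11.29 on the MO-Tbx5a arrays, and 10.93, 10.91 and 10.9 with the mimic. Every array of both morphant groups lay above both controls. The rise in MO-Tbx5a was 1.86 ± 0.20 (SE), or 3.62-fold, with q = 3.17e-05. With the mimic the level was 2.997-fold that of MO-Ct (change 1.58 ± 0.20, q = 0.000733), and its difference from MO-Tbx5a was not called (-0.27 ± 0.18, q = 0.225). The other col11a2 probe analysed here, A_15_P729606, changed by 0.21, -0.25 and -0.03 in the 3 comparisons and was called in none. The paper's list of putative miR-19a targets holds a further col11a2 transcript, up in MO-Tbx5a and down with the mimic. Its probe was not among those analysed here, so the pattern above holds for A_15_P151126 only. The same list holds the link protein gene hapln1b, also up in MO-Tbx5a and down with the mimic. No probe of hapln1b was analysed here.

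The alpha 1 chain of type XI collagen is encoded by col11a1a and col11a1b. The brightest col11a1a probe read 15.51 and 15.62 in MO-Ct, 16.23, 16.04 and 15.81 in MO-Tbx5a and 15.53, 15.5 and 15.6 with the mimic, so the morphant arrays without the mimic stood above all others. It rose by 0.46 (q = 0.0162) and fell by 0.48 on the log2 scale with the mimic (q = 0.00541). Its rise was not called when either MO-Ct array or MO-Tbx5a replicate 1 was left out. The other probes of col11a1a rose by 1.41 and 1.68, and 1 of them fell with the mimic, by 1.43. The brighter probe of col11a1b rose by 0.63 (q = 0.00228) and fell by 0.69 (q = 0.000419), and its other probe was called in neither comparison.

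Type II collagen is the main collagen of notochord sheath and cartilage, and zebrafish carry its alpha 1 chain in col2a1a and col2a1b. All 4 probes of col2a1a were called higher in MO-Tbx5a, by 0.66, 1.21, 1.15 and 0.96 from the brightest to the dimmest. The brightest read 16.49 and 16.1 in MO-Ct, 17.06, 16.75 and 17.04 in MO-Tbx5a and 16.71, 16.71 and 16.72 with the mimic, and its rise (q = 0.00324) was not called without MO-Ct replicate 2. The third in brightness (A_15_P163336) read 11.17 and 11.13, then 12.44, 12.23 and 12.24, then 11.73, 11.53 and 11.63, and the 3 groups did not overlap. Its rise was 1.15 ± 0.12 (q = 2.95e-05), it was lower with the mimic than without by 0.67 (q = 0.000294), and it remained 0.48 above MO-Ct with the mimic (q = 0.0265). All but the brightest col2a1a probe were called lower with the mimic (A_15_P658791 not without MO-Tbx5a replicate 3 or replicate 1 of the mimic group), and the same 3 were called higher than MO-Ct. None of these 3 kept the last call when MO-Ct replicate 2 or the mimic array of replicate 1 was left out. For col2a1b 1 probe rose (0.89, q = 0.00227), 1 fell (-0.56, q = 0.0212) and 2 were not called, the brightest among them. The fall was not called without either MO-Ct array or MO-Tbx5a replicate 3.

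Type XXVII collagen is a short fibrillar collagen of the notochord sheath and cartilage, encoded by col27a1a and col27a1b. The brighter col27a1a probe read 8.12 and 7.62 in MO-Ct, 9.54, 9.16 and 9.31 in MO-Tbx5a and 8.03, 8.01 and 7.78 with the mimic. It rose by 1.47 ± 0.17 (2.76-fold, q = 4.3e-05), fell by 1.40 on the log2 scale with the mimic (q = 1.37e-05) and differed from MO-Ct by 0.07 at the end. The dimmer col27a1a probe (A_15_P551647) read 7.62 and 7.32, then 8.1, 8.23 and 8.19, then 8.54, 8.27 and 8.43. It was higher than MO-Ct without the mimic (0.70, q = 0.00126) and with it (0.94, q = 0.00135), and the difference between the morphant groups was not called (0.24, q = 0.114). The brighter probe of col27a1b rose by 0.75 (q = 0.00119) and was lower with the mimic by 1.097 (q = 2.33e-05), and the dimmer probe was called in no comparison.

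**Figure D2:**
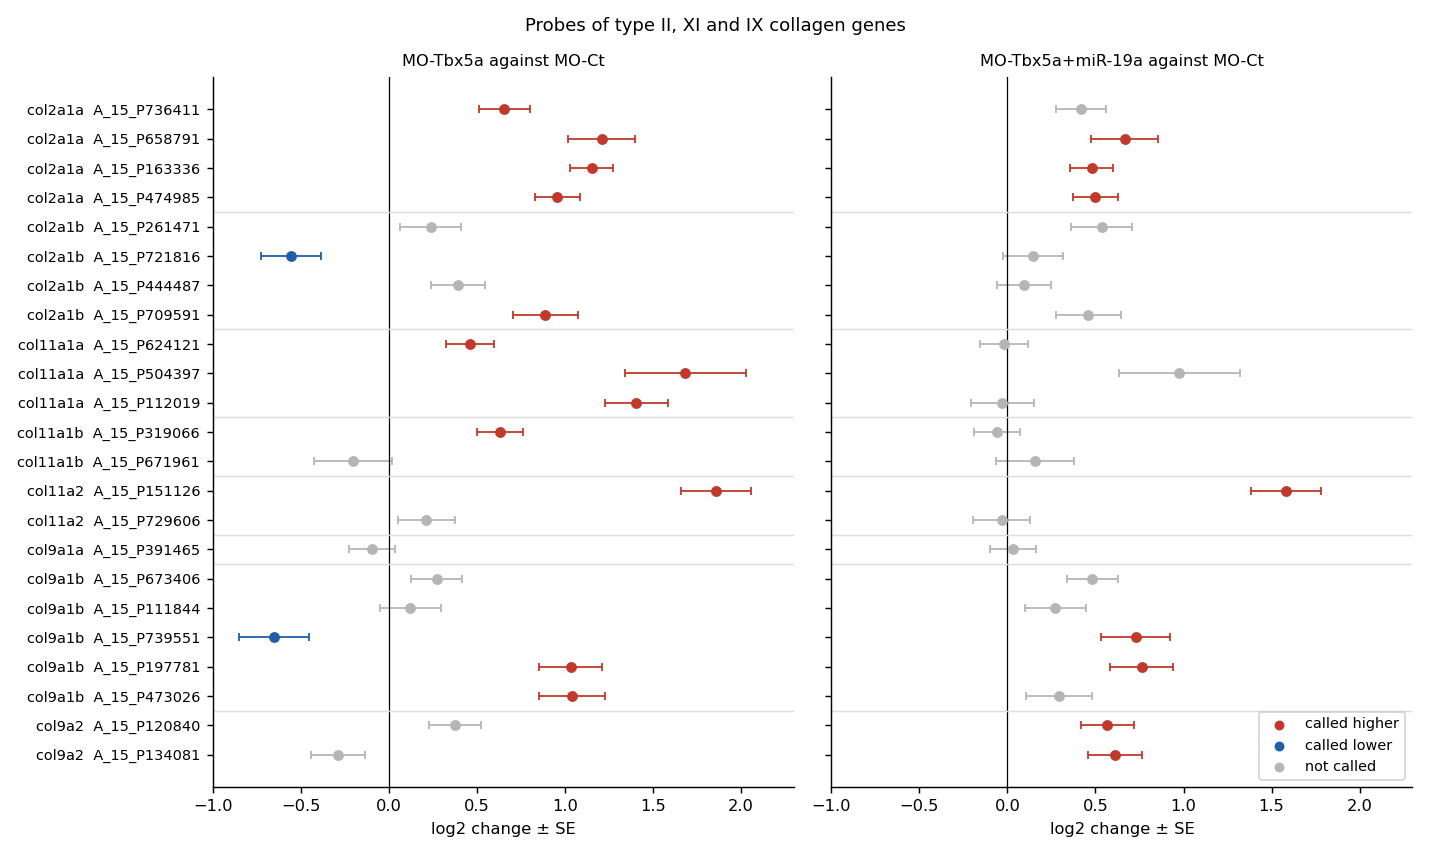
Log2 change (horizontal axis, bars ± 1 SE from limma) of the 23 probes of type II, XI and IX collagen genes (rows, each gene's brightest probe first) in MO-Tbx5a (left) and in MO-Tbx5a+miR-19a (right), both against MO-Ct, coloured by call. On the left 12 probes were called higher and 2 lower, on the right 8 were called higher and none lower, and col11a2 A_15_P151126 lies farthest from 0 in both.

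Type IX collagen sits on the surface of type II fibrils. Of 8 type IX probes 2 were higher and 1 lower in MO-Tbx5a by the call (37.5%, near the background of 38.4%). With the mimic 4 were called higher than in MO-Ct (50%), where 5.24% of all probes were. All 8 lay above 0, with a median of 0.525. These 8 probes belong to 3 genes, and by the brightest probe 1 of the 3 was called. The 2 probes of col9a2 read 13.81 and 13.42 (brighter) and 8.23 and 7.91 (dimmer) in MO-Ct, and 14.12, 14.12 and 14.31 and 8.76, 8.5 and 8.78 with the mimic. Both sets lay above their controls, by 0.57 (q = 0.0308) and 0.61 (q = 0.0245), and neither was called without MO-Ct replicate 2 or without replicate 1 or 3 of the mimic group. The 5 probes of col9a1b, which encodes an alpha 1 chain, changed by 0.27, 0.12, -0.65, 1.03 and 1.04 in MO-Tbx5a, and the last 3 of these were called, the fall not without MO-Ct replicate 2 or MO-Tbx5a replicate 3. With the mimic 2 of the 5 were called higher than in MO-Ct, neither of them without replicate 1 of the mimic group. The probe of col9a1a was called in no comparison.

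Types II, IX and XI, grouped here after their values were seen, supplied 8 of the 12 probes called higher with the mimic than in MO-Ct. Of their 23 probes 34.8% were called in that comparison, of the other 95 matrix probes 6.3% were, and of all probes 11.2% were. By the brightest probe 2 of their 8 genes were called (25%), where 12.1% of all named genes were. A contrast drawn after the values were seen is a description only. The other 4 called higher were the dimmer col27a1a probe, 1 probe of col17a1a, a transmembrane collagen of epidermal attachment, and 2 probes of itga11a. The count of 12 depended on single arrays: it dropped to 2 when MO-Ct replicate 2 was left out and to 7 when MO-Ct replicate 1 was. Leaving out the first array with the mimic (replicate 1) left 3, and leaving out its replicate 3 left 5. Only col11a2 A_15_P151126 and col27a1a A_15_P551647 were called in this comparison whichever of the 8 arrays was left out.

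Type I collagen is a trimer of alpha 1 and alpha 2 chains. Its alpha 1 chains are encoded by col1a1a and col1a1b and its alpha 2 chain by col1a2. Of 11 probes 10 lay below 0 in MO-Tbx5a, with 6 called lower and 1 higher (63.6%, all probes 38.4%). These probes belong to 3 genes. By the brightest probe 1 of the 3 was called lower and none higher (33.3%, all named genes 37.1%). With the mimic 6 were called higher and 1 lower than in MO-Tbx5a (63.6%, all probes 42.2%). None of the 11 was called by limma with the mimic against MO-Ct, where 1 had an unadjusted p under 0.05. The brightest probe of col1a1a read 13.79 and 13.86 in MO-Ct, 13.3, 13.2 and 12.78 in MO-Tbx5a, and 14.0, 13.97 and 14.03 with the mimic. All 3 MO-Tbx5a arrays lay below every other array. It fell by 0.73 (SE 0.15, q = 0.00197) and rose by 0.91 (q = 0.000142) with the mimic. The other bright col1a1a probes fell by 1.23 and 0.96 and rose by 1.02 and 0.58, and the dimmest, with group means of 7.62 to 7.85, was not called. For col1a2 only the dimmest of 3 probes was called, with a fall of 0.88 on the log2 scale (q = 0.000719) and a rise of 0.72 (q = 0.000844).

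Type V collagen is built into type I fibrils and controls their width. All 3 probes of col5a2a fell in MO-Tbx5a, by 0.85, 1.12 and 0.94 on the log2 scale, and rose with the mimic, by 0.88, 1.27 and 0.46, the last not called without MO-Tbx5a replicate 1 or without replicate 1 or 3 of the mimic group. The brightest read 11.5 and 11.79 in MO-Ct, 10.79, 11.06 and 10.54 in MO-Tbx5a and 11.84, 11.52 and 11.67 with the mimic, and the MO-Tbx5a arrays did not overlap the others. The other type V genes analysed here, col5a3a and col5a3b, each had 1 probe called higher in MO-Tbx5a (0.53 and 0.50). These probes were called lower with the mimic (-0.45 and -0.71), and the rise of col5a3b was not called without either MO-Ct array. The brightest probes of both genes were not called in any comparison.

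Among collagens outside the fibrils, the basement membrane and network types had 3 probes called higher and 1 lower of 8 in MO-Tbx5a. This was 50%, where 38.4% of all probes were called. The gene col8a1a, which encodes a short network-forming chain, rose by 0.54 (q = 0.021) and fell by 0.71 with the mimic (q = 0.00176). Its rise was not called without MO-Ct replicate 2, MO-Tbx5a replicate 1 or MO-Tbx5a replicate 2. Type X collagen, a product of hypertrophic cartilage, was dim at this stage (all probe means under 6), and 1 of 4 col10a1a probes was called, its rise in only 3 of the 8 fits with an array left out (lost without either MO-Ct array, MO-Tbx5a replicate 1 or 2, or replicate 1 of the mimic group). Among the remaining types col19a1, with a mean under 6, rose (0.63, q = 0.00887) and fell with the mimic (-0.55, q = 0.00787). The gene col28a2a fell (-0.58, q = 0.0163) and rose (0.65, q = 0.00371). The first calls of both were lost without MO-Ct replicate 1. The brightest col17a1a probe, itself under 6, rose by 0.56 (q = 0.00304) and stayed 0.51 above MO-Ct with the mimic (q = 0.0208). It was not called in the last comparison without either MO-Ct array or MO-Tbx5a+miR-19a replicate 3.

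Laminins are trimers of an alpha, a beta and a gamma chain. Of 16 probes, 2 were higher and 6 lower in MO-Tbx5a by the call (50%, all probes 38.4%). With the mimic 6 were called higher and 5 lower than without (68.8%, all probes 42.2%). None was called by limma with the mimic against MO-Ct (all probes 11.2%), where 3 had an unadjusted p under 0.05. The gene lamc1 encodes the gamma 1 chain shared by most laminins. Its brighter probe read 9.94 and 10.11 in MO-Ct, 8.89, 8.97 and 8.64 in MO-Tbx5a and 10.49, 9.79 and 10.22 with the mimic. The MO-Tbx5a arrays stood below all others, a fall of 1.19 ± 0.18 (q = 0.000303), and the rise with the mimic was 1.33 ± 0.16 (q = 3.73e-05). The dimmer lamc1 probe (A_15_P133951) read 9.37 and 9.21, then 9.58, 9.49 and 9.16, then 9.24, 9.47 and 9.4, with overlapping groups and no call.

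The single probe of lamb2, a beta chain of muscle and nerve basement membranes, read 9.31 and 9.39 in MO-Ct, 8.68, 8.16 and 8.25 in MO-Tbx5a and 9.2, 9.19 and 9.29 with the mimic. It fell by 0.99 (q = 0.000297) and rose by 0.86 (q = 0.000218), with no overlap between MO-Tbx5a and the other arrays. Both probes of lama5, a chain of epidermal and vascular basement membranes that fin fold growth needs, fell by 0.41 and 0.47 on the log2 scale and rose by 0.63 and 0.62. Each lost the first call without MO-Tbx5a replicate 3, and the brighter also without MO-Ct replicate 1 and the dimmer without MO-Ct replicate 2. The probe of lama4, an endothelial chain, fell by 0.56 (q = 0.0142), not called without MO-Ct replicate 2, and rose by 0.56 (q = 0.00604). For lama1, a chain needed for the notochord and the eye, neither probe was called in MO-Tbx5a, and both were called lower with the mimic (-0.66 and -0.48). The brighter lama2 probe varied most within a group among laminins, with 7.36, 8.33 and 6.92 on the 3 arrays with the mimic, and was not called. The dimmer rose by 0.44 (q = 0.0251), not called without either MO-Ct array or MO-Tbx5a replicate 1, and fell by 0.59 on the log2 scale with the mimic (q = 0.00185). No probe of lamb1b or lamb4 was called in any comparison.

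**Figure D3:**
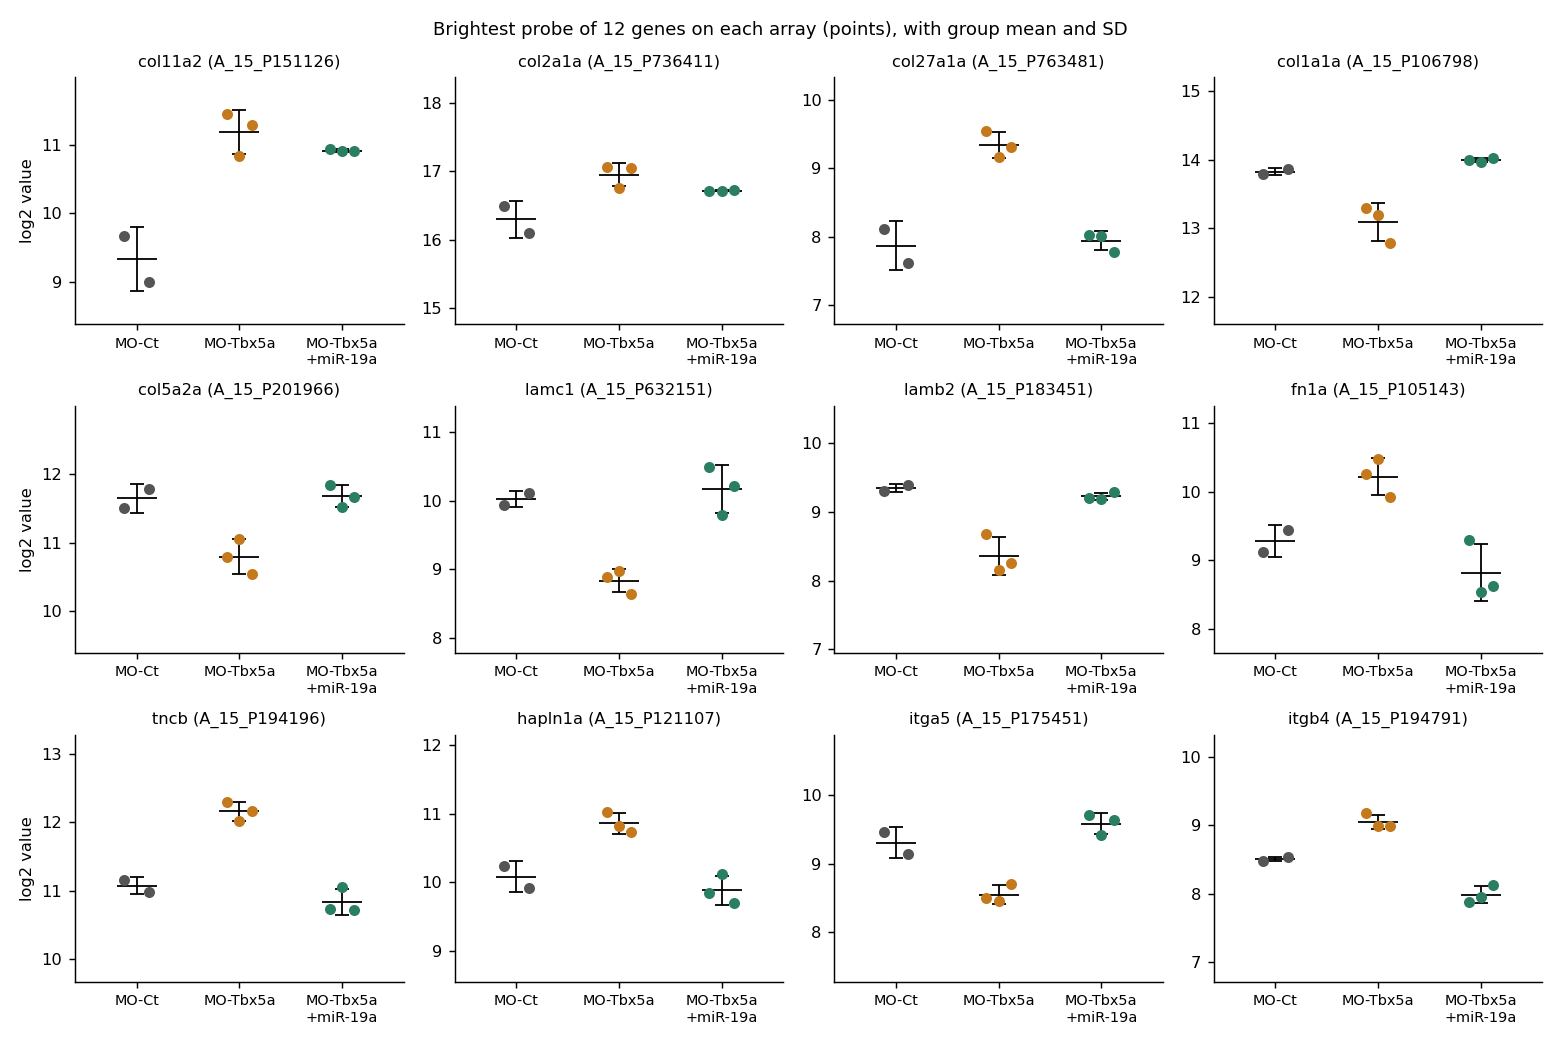
Log2 value (vertical axis) of the brightest probe of 12 genes on every array (points), with the group mean (long bar) and SD (whiskers), for MO-Ct (n = 2), MO-Tbx5a (n = 3) and MO-Tbx5a+miR-19a (n = 3). Each panel spans the same number of log2 units. In both morphant groups col11a2 and col2a1a lie above MO-Ct, and itgb4 with the mimic lies below MO-Ct. The MO-Tbx5a arrays do not overlap the others in any panel but that of col11a2. Most of the 12 genes were named by a rule that required a call without overlap between groups, so this separation follows from the selection.

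Fibronectin, which the migrating heart precursors and the somite boundaries depend on, is encoded by fn1a and fn1b. The brighter probe of fn1a read 9.12 and 9.45 in MO-Ct, 10.26, 10.48 and 9.93 in MO-Tbx5a and 9.3, 8.54 and 8.62 with the mimic. All MO-Tbx5a arrays were above the rest. The rise was 0.94 ± 0.22 (q = 0.00484), not called without MO-Ct replicate 1, and the fall with the mimic was -1.40 ± 0.20 (q = 0.000104). The other fn1a probe rose by 1.07 (q = 0.000161) and fell by 0.69 on the log2 scale (q = 0.00103). None of the 4 probes of fn1b was called in any comparison. Its brightest read 10.77 and 10.29, then 10.53, 10.78 and 10.47, then 11.36, 10.96 and 10.64, and the change in MO-Tbx5a was 0.06 ± 0.20 (q = 0.83).

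Tenascin C, an anti-adhesive matrix protein of remodelling tissue, was covered by 2 probes of tncb. The brighter read 11.16 and 10.99 in MO-Ct, 12.3, 12.02 and 12.16 in MO-Tbx5a and 10.74, 11.06 and 10.72 with the mimic. The rise of 1.09 (q = 0.000107) and the fall of 1.32 on the log2 scale (q = 7.01e-06) both exceeded the spread in every group, whereas the other probe (7.95 and 7.73 in MO-Ct) was called in neither. Of 5 fibulin probes 1 was called in MO-Tbx5a (20%, all probes 38.4%). This was the second in brightness of fbln5, an elastic fibre protein, with a mean under 6. It fell by 0.70 (q = 0.00588) and rose by 0.68 with the mimic (q = 0.00278). The brightest fbln5 probe changed by 0.03 and 0.01. No probe of fbln1, or of fbn2b, the fibrillin of the fin fold, was called in any comparison.

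Versican and its link proteins bind hyaluronan, the sugar polymer that swells the cardiac jelly. Of 3 vcanb probes 1 was called higher (0.56, q = 0.0147) and 1 lower (-0.42, q = 0.0162) in MO-Tbx5a, and the brightest changed by -0.37 (q = 0.0594). The first of these was also lower with the mimic (-0.96, q = 0.000166). The rise was not called without MO-Ct replicate 2, and the fall not without MO-Ct replicate 1 or MO-Tbx5a replicate 3. With the mimic all 3 lay below MO-Ct, by changes of -0.39, -0.30 and -0.40 from the brightest to the dimmest, each with an unadjusted p under 0.05 and none called. The link protein hapln1a, which acts in the cardiac jelly of the zebrafish heart, read 10.24 and 9.92 in MO-Ct, 11.03, 10.82 and 10.73 in MO-Tbx5a and 9.84, 10.12 and 9.7 with the mimic. Its MO-Tbx5a arrays exceeded all others, by 0.78 over MO-Ct (q = 0.00179), and the fall with the mimic was -0.97 (q = 0.00012). The brighter probe of hapln4, a link protein of the nervous system, was called only with the mimic against MO-Tbx5a (-0.39, q = 0.0246), and not without any of 4 arrays left out in turn.

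The integrin subunits, the receptors, split within both classes. Of 7 alpha probes 3 were higher and 2 lower in MO-Tbx5a by the call (71.4%). Of 14 beta probes 1 was higher and 5 lower (42.9%, near the 38.4% of all probes). The probe of itga5, the alpha subunit of the main fibronectin receptor, read 9.46 and 9.14 in MO-Ct, 8.49, 8.45 and 8.7 in MO-Tbx5a and 9.71, 9.41 and 9.63 with the mimic. It fell by 0.75 (q = 0.00133) and rose by 1.04 (q = 4.17e-05) with the mimic. The ligand gene fn1a changed the other way in both comparisons, which share the MO-Tbx5a arrays and so are not separate observations. The other fibronectin gene, fn1b, was called in neither. Both probes of itga3b, part of a laminin receptor, rose in MO-Tbx5a (0.55, q = 0.01, and 0.40, q = 0.0294), neither called without MO-Ct replicate 2, and itga6b, another laminin receptor chain, was called in no comparison.

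The beta 1 subunit pairs with most alpha chains and has several copies on the array. The brighter itgb1b probe fell by 0.43 (q = 0.0185), not called without MO-Ct replicate 2 or MO-Tbx5a replicate 1, and rose by 0.46 (q = 0.00519), and that of itgb1a was called only with the mimic against MO-Tbx5a (-0.69, q = 0.00022). The probe of itgb1b.2 fell by 0.52 (q = 0.0314), not called without either MO-Ct array or MO-Tbx5a replicate 3, and rose at the threshold with the mimic (0.40, q = 0.0496, not called with 7 of the 8 arrays left out in turn). All 3 probes of itgb5, a vitronectin receptor chain, fell in MO-Tbx5a, by 0.57, 1.17 and 0.54 on the log2 scale, and the last 2 of them rose with the mimic, by 0.65 and 0.42. The first of these falls was not called without MO-Ct replicate 2, and the rise of 0.42 not without MO-Tbx5a replicate 1 or replicate 1 of the mimic group. The probe that fell most (A_15_P161756) read 8.24 and 8.46 in MO-Ct, 7.09, 7.33 and 7.12 in MO-Tbx5a and 7.93, 7.66 and 7.9 with the mimic, so the mimic arrays lay between the others, 0.52 below MO-Ct (q = 0.0295).

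The gene itgb4 encodes the beta subunit of the epidermal hemidesmosome, which anchors keratinocytes to laminin. Its brightest probe (A_15_P194791) read 8.48 and 8.53 in MO-Ct, 9.17, 8.99 and 8.98 in MO-Tbx5a and 7.88, 7.95 and 8.12 with the mimic. The 3 groups did not overlap. It rose by 0.54 (q = 0.00408), was 1.06 lower with the mimic than without (q = 1.19e-05) and then lay 0.52 below MO-Ct (q = 0.0195). This probe and A_15_P161756 of itgb5 were the 2 matrix probes called lower with the mimic than in MO-Ct, and neither was called there without MO-Ct replicate 1 or MO-Ct replicate 2. The other itgb4 probes were not called against MO-Ct in either morphant group.

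Different probes of 1 gene often disagreed. In MO-Tbx5a 17 matrix genes had 2 or more called probes, and in 8 of them (47.1%) the calls went in both directions, where this held for 28.4% of the 2188 named genes with 2 or more called probes. The genes were col1a1b, col2a1b, col4a5, col9a1b, hapln3, itga11a, lamb1a and vcanb. With the mimic against MO-Tbx5a it held for 6 of 16 (37.5%, all named genes 28.2%), and with the mimic against MO-Ct for none of 4, where the share over all named genes was 7.55%. The differences between these shares were not tested.

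The link protein gene hapln3 showed this in full. Its brighter probe (A_15_P112225) read 11.32 and 10.95 in MO-Ct, 11.83, 11.92 and 12.4 in MO-Tbx5a and 11.15, 11.5 and 11.17 with the mimic. The dimmer (A_15_P136431) read 7.92 and 8.05, then 6.84, 6.83 and 6.86, then 8.07, 7.76 and 7.99. In both, MO-Tbx5a stood apart from all other arrays, above them in the first (0.92, q = 0.00186) and below them in the second (-1.14, q = 3.66e-05). Calls of neither were lost when any array was left out. The laminin beta 1 gene lamb1a gave the same picture: A_15_P108322 rose by 0.98 (q = 0.000489), A_15_P597787 fell by 0.99 on the log2 scale (q = 0.000241) and the remaining probe changed by 0.09 and was not called.

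For col1a1b the dimmest of 4 probes rose by 0.99 (q = 0.000109). A_15_P749701 fell by 1.31 on the log2 scale (q = 0.000252) and A_15_P628306 by 0.39 (q = 0.0428). The latter call was kept in 4 of the 8 fits with an array left out. The brightest changed by -0.38 (q = 0.0322) and was not called, short of the fold change limit. For col4a5, a chain of basement membrane type IV collagen, the dimmer probe read 8.91 and 8.66 in MO-Ct, 7.71, 7.48 and 7.59 in MO-Tbx5a and 9.26, 8.59 and 9.18 with the mimic, a fall of 1.19 (q = 0.000308). The far brighter one read 17.26 and 17.19, then 17.61, 17.57 and 17.66, a rise of 0.39 (q = 0.0378) that was not called when any 1 of the 5 arrays compared was left out. For itga11a, a collagen receptor chain, the brightest probe rose by 1.41 (q = 0.000214) and the second fell by 0.70 on the log2 scale (q = 0.0157), the latter not called without either MO-Ct array or MO-Tbx5a replicate 1. Both were called higher than MO-Ct with the mimic (0.74, q = 0.0367, and 0.72, q = 0.0394), and both lost this call without either MO-Ct array.

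**Figure D4:**
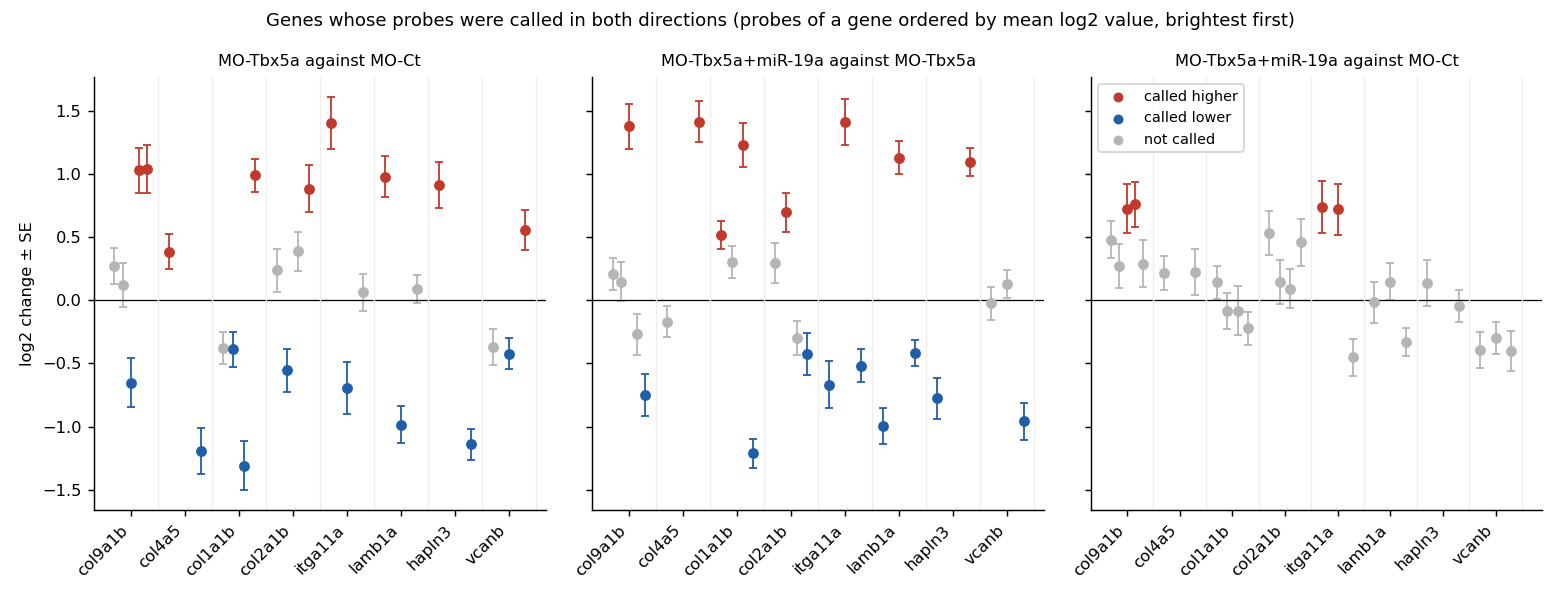
Log2 change (vertical axis, bars ± 1 SE from limma) of every probe of the 8 genes whose probes were called in both directions in MO-Tbx5a against MO-Ct, brightest probe of each gene first, in the 3 comparisons (panels) and coloured by call. In the third panel probes of these genes lie between -0.45 and 0.76, and only col9a1b and itga11a have probes called there.

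Genes that process or accompany this matrix were read from fixed lists by the brightest probe of each gene. Over the brightest probes of all 12792 named genes, 37.1% were called in MO-Tbx5a, 41.3% with the mimic against MO-Tbx5a and 12.1% with the mimic against MO-Ct. Of 21 genes for collagen making (proline and lysine hydroxylases, chaperones, lysyl oxidases, propeptide cleavage), 7 were higher and 1 lower in MO-Tbx5a by the call, and 3 higher and 7 lower with the mimic, shares of 38.1% and 47.6% that lie near that background. The prolyl hydroxylase p4ha1a rose by 0.79 and fell by 0.92 on the log2 scale, and the procollagen cleavage enhancer pcolcea, the gene called lower, fell by 1.26 and rose by 0.93. With the mimic against MO-Ct 4 of the 21 were called higher and 0 lower (19.0%, all named genes 12.1%). Among these 4 the cross-linking enzyme loxl2b rose in each step, by 0.60 and 0.58, and ended 1.18 above MO-Ct (q = 0.000216). Of 28 other proteoglycans and matricellular proteins 10 were higher and 6 lower in MO-Tbx5a (57.1%). With the mimic 5 were higher and 8 lower than in MO-Tbx5a (46.4%), and 4 higher and 2 lower than in MO-Ct (21.4%). The largest rises in MO-Tbx5a were those of spon2a (1.70) and the cartilage matrix protein matn4 (1.37). The largest fall was that of thbs4a, a thrombospondin of muscle attachments (-1.26), which was also 1.25 below MO-Ct with the mimic (q = 0.000553).

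Of 11 other basement membrane genes 2 were higher and 2 lower in MO-Tbx5a (36.4%, near the background) and 7 higher and 2 lower with the mimic (81.8%). Against MO-Ct 2 were higher and 0 lower with the mimic (18.2%). The laminin linker nid1b fell by 1.00 and rose by 1.04, and frem2a of the fin fold basement membrane fell by 1.05 and rose by 0.79. Called the other way, npnta rose by 0.74 and was 0.59 lower with the mimic. The gene frem1b rose by 0.47, and its change with the mimic (-0.36) was not called. Of 9 turnover genes 3 were called lower and none higher in MO-Tbx5a (33.3%, near the background). With the mimic 0 were higher and 3 lower than in MO-Tbx5a (33.3%). Against MO-Ct 0 were higher and 1 lower with the mimic (11.1%, all named genes 12.1%). That 1 was the gelatinase mmp2, which fell by 0.64 and stayed 0.67 below MO-Ct with the mimic (q = 0.00978). Of 15 adhesion genes, most of them acting inside the cell, 5 were higher and 3 lower in MO-Tbx5a (53.3%). With the mimic 2 were higher and 7 lower than in MO-Tbx5a (60.0%), and 0 higher and 4 lower than in MO-Ct (26.7%). Among those called in MO-Tbx5a were focal adhesion kinase ptk2aa (1.06, then -1.12 with the mimic) and paxillin pxna (-0.74, then 0.42). The list also held the integrin chain gene itgav, left out of the integrins above because its symbol has no digit, and the integrin-like gene itgbl1. Both were called in MO-Tbx5a, itgav lower (-0.40, q = 0.0173) and itgbl1, with group means under 6, higher (0.50, q = 0.0395).

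Markers of 7 tissues that make or border this matrix were read the same way, against the background of 37.1% called in MO-Tbx5a. The share called was 72.2% for fast muscle and 75% for endothelium, 40% for notochord, 41.7% for epidermis and 36.4% for fin fold, and 23.1% for sclerotome and fibroblast and 22.2% for cartilage and neural crest. Of 18 fast muscle genes 13 were called lower and none higher in MO-Tbx5a (median -0.76), and 12 were called higher and 1 lower with the mimic. Their summed level was 20.25 to 20.26 on the MO-Ct arrays, 19.37 to 19.61 in MO-Tbx5a and 19.99 to 20.27 with the mimic, on the log2 scale. Of 10 notochord genes 3 were higher and 1 lower in MO-Tbx5a by the call, with summed levels of 14.05 to 14.29, 14.16 to 14.29 and 14.26 to 14.35. Of 9 cartilage and neural crest genes 1 was called in each direction (median -0.11). The higher was sox9a, a regulator of type II collagen genes in cartilage (1.15, q = 0.000116), which was lower with the mimic by 0.76. The lower was dlx2a (-0.57, q = 0.00401), which was higher with the mimic by 0.54, and sox9b was not called (0.225). Summed levels of the 9 genes were 14.91 to 15.07, 15.01 to 15.05 and 14.99 to 15.12. Of 13 sclerotome and fibroblast genes 1 was higher and 2 lower (13.29 to 13.34, 13.12 to 13.30 and 13.31 to 13.38), and of 11 fin fold genes 1 was higher and 3 lower (14.10 to 14.24, 13.91 to 14.07 and 14.08 to 14.21). Of 12 epidermis genes 1 was higher and 4 lower (19.71 to 19.74, 19.81 to 19.89 and 19.76 to 19.91), and of 8 endothelium genes 2 were higher and 4 lower (12.48 to 12.62, 12.63 to 12.72 and 12.53 to 12.62). The brightest genes of a list weigh most in its summed level, so this level does not measure the amount of a tissue. For epidermis and endothelium it was higher in MO-Tbx5a than in MO-Ct although most called genes were lower. The part of these tissues in the changes of matrix genes was not tested.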

How the data were processed

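RNA of pooled whole embryos was hybridised to 1-colour Agilent zebrafish arrays. The deposited log2 values were made by the authors from median spot signals, with normexp background correction (offset 16) and cyclic loess between arrays, and were used as deposited. The 3 deposited scanner files hold processed signal intensity and its flag for a signal well above background, and served only to pair probes with accessions, hence with current symbols of the RefSeq gene table (names only), and to list probes outside the value table. The submitters' processing notes name Feature Extraction 10.7 and 9.1.

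Group means were compared with limma 3.58.1 (R 4.3.3) over all 39162 probes and 8 arrays (5 residual degrees of freedom), and tables were made in Python 3.11.15. The fit was tested on simulated data. The number of arrays limits the precision. Named genes were, per family and comparison, the called probes without overlap between groups that rose or fell most (up to 2 each way), genes with probes called in both directions, all genes of the small families, and fixed partners. The genes col5a3a, col5a3b, col10a1a, lamb4, itga6b and the examples from the other lists were added after their values were seen. The members and lists were chosen with earlier results of these data known. Same-numbered arrays showed no shared deviation, so no block was used in the main fit. With groups of 2 or 3 arrays this check cannot exclude pairing. Alternatives were 3 further normalisations, a moderated variance with trend, a filter on dim probes, a fold change above 2, the 2 compared groups alone, 1 probe or the mean of all probes per gene, a replicate block and leaving out each array.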

Additional observations from a re-analysis of the deposited data

Results flagged for a closer look

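A signal appeared outside the value table. One probe of hapln2, a link protein gene with which no probe of that table was paired, was marked well above background in 3 of 3 scans. Its processed signals were 9.7, 8.0 and 6.2 in the scans of MO-Tbx5a+miR-19a replicates 1, 2 and 3. Signals in this paragraph are linear intensities, not log2 values as elsewhere. The other hapln2 probe had 7.1, 7.0 and 11.3 and was so marked in 1 of 3. The hapln2 signals were low and near the limit of this mark. In the scan of replicate 3 the marked 6.2 lay below the unmarked 6.8 of an itgb5 probe outside the value table. Probes of itga2b outside that table read 2.6 or less and were unmarked. No scan of another group was used, so no comparison was made. All 3 scans correlated better with the column of MO-Ct replicate 2 than with their own columns, so their assignment is uncertain. No test for single outlying arrays was run, as the groups hold 2 or 3 arrays.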

How the results depend on the processing

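Quantile normalisation, a second cyclic loess, scaling to the 75th percentile, moderation with trend, the filter at a mean of 6 and the fit to 2 groups kept every count of matrix probes within 1.5 times its value, and the first 3 of these, where it was computed, moved the median of all probes by under 0.1. A fold change above 2 left 11 higher and 7 lower in MO-Tbx5a, 10 and 7 with the mimic against MO-Tbx5a, and 1 and 0 against MO-Ct. For these counts no share over all probes was computed. With 1 probe for each of the 55 genes the counts were 18 and 11, 11 and 17, and 4 and 1. The shares called were 52.7%, 50.9% and 9.1%, where 37.1%, 41.3% and 12.1% of all named genes were called. The last share rests on the 4 and 1 genes called, and its difference from the background was not tested. Leaving out each array gave 25 to 36 higher and 21 to 29 lower in MO-Tbx5a, and 26 to 30 and 31 to 35 with the mimic against MO-Tbx5a. Against MO-Ct it gave 2 to 15 higher and 0 to 4 lower, with 0 lower when either MO-Ct array was left out, 1 for replicate 3 of the mimic group, and 4 for its replicate 2 or for MO-Tbx5a replicate 3. Of the calls in MO-Tbx5a 23 of 35 higher and 17 of 29 lower were made in all 8 such fits.

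Same-numbered arrays of different groups did not deviate together (correlations of deviations -0.222 to 0.178). With the replicate number as a block, the counts with the mimic against MO-Ct were 6 higher and 0 lower, and the other counts stayed within 1.5 times.

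With the mean of all probes of a gene, col4a5 changed by -0.40 in MO-Tbx5a (adjusted p = 0.0427 in limma) and by 0.62 with the mimic (adjusted p = 0.0017), hapln3 by -0.11 and 0.16, and itga11a by 0.078 with the mimic, each opposite in sign to its brightest probe, since its probes disagree. Over all values of the genes named by rule and all alternatives, 2090 kept direction and side of the threshold, 124 no longer passed, 31 newly passed and 5 turned. Many of these genes were named for a call without overlap, and values called in neither fit count as kept. These totals therefore do not describe the matrix genes as a whole.

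The planned restriction to probes whose array gene name and current symbol both match was not run, since no gene name column was used here. Probes near the lower end of the scale (21 of 118 with a mean under 6) have compressed changes, and 2 control arrays set the precision of every comparison with MO-Ct.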
